A study of Mus musculus with 6 samples.

Results

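The genes described here are 46 genes of the cell division cycle, out of 17556 genes in the expression table, measured in the injured mouse left ventricle. They were taken from the table by their gene symbols, and fall into 16 genes of the passage into and through S phase and 30 genes of mitosis. All 46 were found and all 46 passed the filter on low counts. RNA came from whole left ventricles of 6 sibling mice aged 6 to 10 weeks, taken 4 days after permanent ligation of the left anterior descending coronary artery. Every mouse carried floxed alleles of Yap (both alleles) and Wwtr1 (1 allele), and every mouse ate chow with tamoxifen citrate from the time of surgery. The 3 Cre positive mice also carried MerCreMer, a tamoxifen-inducible Cre recombinase, at the periostin locus, so that recombination is directed to myofibroblasts, the scar-forming cells that switch on periostin. The 3 Cre negative mice had wildtype Periostin. The presence of the Cre allele at Postn and the depletion of Yap and Wwtr1 therefore cannot be told apart, and each library mixes myofibroblasts with all other cells of the ventricle. Uninjured ventricles were not analysed here, so that no level can be set against the state before infarction.

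A dividing cell switches on genes in waves. Cyclin D and cyclin E with their kinases release E2F transcription factors from the retinoblastoma family, and E2F turns on the enzymes that load the replicative helicase, make nucleotides and copy DNA. Later, B-Myb, the MuvB complex and FoxM1 turn on the genes of G2 and mitosis, whose products drive entry into mitosis, build the spindle and cut the cell apart. In the heart after infarction the cells known to divide are mainly fibroblasts, endothelial cells and leukocytes, while adult cardiomyocytes divide very little. Yap and Wwtr1 are transcriptional coactivators known for raising proliferation genes in many tissues. In a bulk sample, fewer dividing cells and less RNA of these genes per cell cannot be told apart.

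Promoters of many S phase and mitotic genes are known to hold short elements that E2F, NF-Y or MuvB can bind, and 5 promoters of members are printed to show such letters in genes of both kinds. The sequences are the 160 bases before the transcript start, read 5′ to 3′ on the gene's own strand from RefSeq's annotation of GRCm38.p6, the build that the submitters' processing notes name. Capitals mark 3 kinds of element, each searched on both strands, and different elements can share at most 1 base. For E2F only the letters TTTCCCGC and TTTGGCGC were searched, and other forms of its element were left in lower case. A CCAAT box (bound by NF-Y) is CCAAT, and a cell cycle genes homology region, or CHR (bound by MuvB), is TTTGAA. Mcm6, a subunit of the replicative helicase, is on the minus strand at chr1:128359706-128359865. Rrm2, the small subunit of ribonucleotide reductase, is on the plus strand at chr12:24708094-24708253. Cdk1, the kinase that drives entry into mitosis, is on the minus strand at chr10:69352913-69353072. Top2a, the topoisomerase that untangles sister chromatids, is on the minus strand at chr11:99024190-99024349. Ube2c, the ubiquitin carrier of the anaphase promoting complex, is on the plus strand at chr2:164769769-164769928.
Mcm6: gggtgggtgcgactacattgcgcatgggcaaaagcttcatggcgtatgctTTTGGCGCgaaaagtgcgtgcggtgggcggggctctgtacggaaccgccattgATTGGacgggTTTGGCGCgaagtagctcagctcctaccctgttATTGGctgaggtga
Rrm2: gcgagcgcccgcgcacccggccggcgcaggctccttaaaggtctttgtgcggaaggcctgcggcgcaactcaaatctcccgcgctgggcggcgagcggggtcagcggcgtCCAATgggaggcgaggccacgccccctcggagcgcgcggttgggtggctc
Cdk1: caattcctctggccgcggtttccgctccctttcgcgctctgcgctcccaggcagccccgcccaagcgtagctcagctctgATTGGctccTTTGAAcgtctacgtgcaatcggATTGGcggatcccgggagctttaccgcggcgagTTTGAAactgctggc
Top2a: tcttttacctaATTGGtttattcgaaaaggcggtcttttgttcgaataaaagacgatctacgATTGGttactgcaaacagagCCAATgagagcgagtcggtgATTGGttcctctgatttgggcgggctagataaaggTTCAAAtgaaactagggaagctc
Ube2c: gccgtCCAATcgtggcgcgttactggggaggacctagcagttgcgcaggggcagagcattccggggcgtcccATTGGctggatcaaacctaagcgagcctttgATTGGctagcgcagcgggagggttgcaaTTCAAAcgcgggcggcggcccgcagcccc

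The RefSeq table held a promoter for 36 of the 46 members, 13 of S phase and 23 of mitosis, as windows of 300 bases from 250 before to 50 after the start. A CCAAT box and a CHR stood together in 16 of the 23 mitotic promoters (69.6%) and in 2 of the 13 S phase promoters (15.4%), against 6.01% of the 10945 promoters of all genes tested. The E2F letters searched were found for 4 of the 13 S phase genes (30.8%) and 0 of the 23 mitotic genes, against 3.28% of the genes tested with a promoter. Other forms of the E2F element were not searched, so these counts do not show which promoters lack one. A CCAAT box, with or without a CHR, was frequent in both sets, for 9 of 13 S phase genes (69.2%) and 20 of 23 mitotic ones (87%). It was found for 42.7% of the genes tested with a promoter. These matches describe letters in a window and are not evidence of binding. No promoter is given for Ccnd1, Ccne2, Mcm4, Ccna2, Cdc25c, Foxm1, Aurkb, Kif20a, Stmn1 and Tpx2.

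Library totals ran from 13177888 to 14827579 estimated counts. The targeted genes did not separate the labels at the level of the whole ventricle, where Yap1 had a log2 fold change of 0.03 (SE 0.09) and Wwtr1 of 0.05 (SE 0.08), Cre positive over Cre negative. Postn, which carries the Cre allele, read 12182, 24690 and 26917 normalised counts in Cre negative replicates 1 to 3 and 12708, 14270 and 13514 in the Cre positive ventricles, where normalised counts are estimated counts scaled to a common library size of 14293747. Its log2 fold change was -0.66 (SE 0.27), with an adjusted p of 0.714 in edgeR's quasi-likelihood test, and -0.94 without Cre negative replicate 1, with an adjusted p of 0.0182 that passed the threshold of 0.05. The library of Cre negative replicate 1 stood apart from the other 5, with a chi-square per gene of 44.45 to 68.83 against each of them, where the other pairs gave 8.13 to 17.19. Set against the mean of the other Cre negative ventricles, the median marker in it stood at 150% for 10 cardiomyocyte markers, at 65.5% for 10 fibroblast markers, at 61.8% for 10 macrophage markers, at 98.3% for 9 endothelial markers and at 485% for the 8 of 10 neutrophil markers tested. Fold changes of the members and of the related lists are therefore given with and without this ventricle. Summed in TPM, the level per transcript length and library, cardiomyocyte markers were at 58410 to 70270 in the Cre negative and 52410 to 57210 in the Cre positive ventricles, and fibroblast markers at 5063 to 8552 and 8181 to 9215. Macrophage markers were at 3069 to 4986 and 4069 to 4706 TPM, and neutrophil markers at 59.8 to 485.5 and 81.2 to 180.5 TPM, with Ngp at 0 in Cre negative replicate 3. The median log2 fold change of macrophage markers was 0.035 (5 of 10 above 0), and -0.23 without Cre negative replicate 1 (1 of 10). That of neutrophil markers was -0.63 (1 of 8 above 0), and turned to 0.53 without that ventricle (7 of 8). Endothelial markers summed to 598.1, 679.7 and 691.8 TPM in the Cre negative and 693.7, 738.8 and 781.9 TPM in the Cre positive ventricles, without overlap. From counts, 5 of 9 had a log2 fold change above 0, with a median of 0.04. All Cre positive normalised counts lay above all Cre negative ones for 1 of the 9, where they did for 7.55% of all genes. Smooth muscle and pericyte markers summed to 576.7, 1013 and 1127 TPM against 1058, 1205 and 1253 TPM. Of these 7 markers, 5 were above 0 and 5 were lowest in Cre negative replicate 1, while Rgs5 (-0.06) and Kcnj8 (-0.145) were below 0. Cnn1 (0.61, unadjusted p 0.0277) and Cspg4 (0.34, unadjusted p 0.0184) had the smallest p in edgeR's quasi-likelihood test, with adjusted p of 0.714. At an unadjusted p below 0.05 in that test, 2.85% of all genes were higher. All 10 cardiomyocyte markers were detected in every ventricle, as the labelled tissue requires, and 0 of 10 had a log2 fold change above 0 (median -0.33), or 1 of 10 without Cre negative replicate 1 (median -0.14). Myl3 (-0.34, unadjusted p 0.0282) and Myl2 (-0.32, unadjusted p 0.0443) had adjusted p of 0.714 in edgeR's quasi-likelihood test. For 6 of the 10, all Cre positive ventricles lay below all Cre negative ones, where 946 of all 13817 genes tested did. The median T and NK cell marker in Cre negative replicate 1 stood at 35.5% of the other Cre negative ventricles, the median B cell marker at 59.8% and the median erythroid marker at 177%. Their summed levels over the 6 ventricles were 5.08 to 26.9, 7.32 to 62.7 and 14360 to 27380 TPM. Atrial markers stood at 242% there, and their sum ran from 6881 TPM in Cre positive replicate 2 to 16600 TPM in Cre positive replicate 1. Counts of Y-linked genes were 16 in Cre negative replicate 2 and 12 in Cre positive replicate 2, and 1592 to 2034 in the other 4 ventricles, so that each genotype held 1 ventricle with few.

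The summed level of the cell cycle genes was set apart mainly by 1 ventricle of each genotype. The 46 members together gave 556.8, 1155.3 and 1241.4 TPM in Cre negative replicates 1 to 3 and 1186.4, 1585.2 and 1165.9 TPM in Cre positive replicates 1 to 3. Cre negative replicate 1 was far below all other ventricles and Cre positive replicate 2 above them, while the other 4 lay close together across both genotypes. No member passed an adjusted p of 0.05 between genotypes in edgeR's quasi-likelihood test, the smallest adjusted p being 0.714, where 0.00724% of all 13817 genes tested did (1 gene). At an unadjusted p below 0.05, 1 member was higher in Cre positive ventricles (Mcm4) and 0 were lower, against 2.85% and 2.98% of all genes. DESeq2's Wald test also called 0 members.

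**Figure D1:**
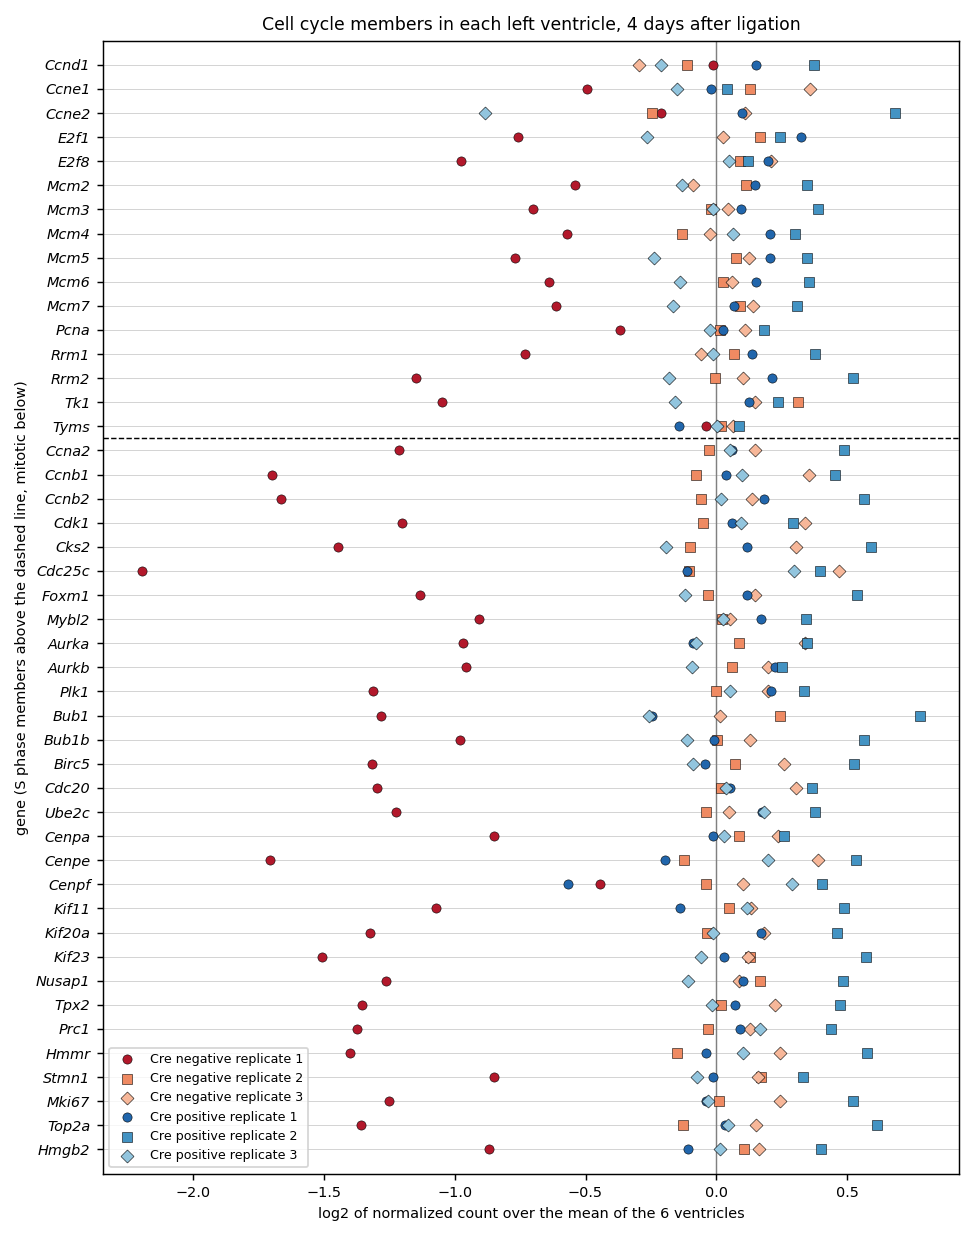
Normalised count of each of the 46 members in each ventricle, as the log2 of its ratio to the mean of the 6 ventricles, with S phase genes above the dashed line and mitotic genes below. Cre negative replicate 1 is the lowest ventricle for 42 genes and Cre positive replicate 2 the highest for 40.

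Fitted over all 6 ventricles, 44 of the 46 members had a log2 fold change above 0, where 51.2% of all genes tested did. The median was 0.38, against 0.01 over all genes tested. Without Cre negative replicate 1, 32 of 46 were above 0, where 50% of the 13995 genes then tested were, and the median was 0.07. In that fit 2 members (Mcm4 and Ube2c) had an unadjusted p below 0.05, both higher, and 0 were lower, against 3.58% and 3.01% of all genes. Again 0 members passed an adjusted p of 0.05 in edgeR's quasi-likelihood test, where 0.0143% of genes did. The lowest ventricle was Cre negative replicate 1 for 42 of the 46 members, and for 32.1% of all genes. Cre positive replicate 2 was the highest ventricle for 40 of 46, and for 20.1% of all genes. All 3 Cre positive ventricles lay above all 3 Cre negative ones for 2 members, Mcm4 and Ube2c, and for 7.55% of all genes. The part of the cell type markers in these differences was not tested.

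The S phase genes and the mitotic genes lay at different distances from the other ventricles in Cre negative replicate 1. The 16 S phase genes summed to 261, 417.2 and 420.6 TPM in Cre negative replicates 1 to 3 and to 440.2, 538.9 and 400.6 TPM in the Cre positive ventricles. For the 30 mitotic genes the sums were 295.9, 738.1 and 820.9 TPM in Cre negative replicates 1 to 3 and 746.2, 1046 and 765.3 TPM in the Cre positive ventricles. In both sets the Cre positive values overlapped the values of Cre negative replicates 2 and 3. The ratio of the mitotic to the S phase sum was 1.13 in Cre negative replicate 1 and lay between 1.7 and 1.95 in the other 5 ventricles. The SD of a set's median log2 level, pooled within genotypes, was 0.33 for the S phase set and 0.58 for the mitotic set, and 0.18 and 0.22 without Cre negative replicate 1, and this difference between the sets was not tested. The median log2 fold change was 0.26 over the S phase genes and 0.40 over the mitotic genes, and without Cre negative replicate 1 it was 0.06 and 0.07.

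**Figure D2:**
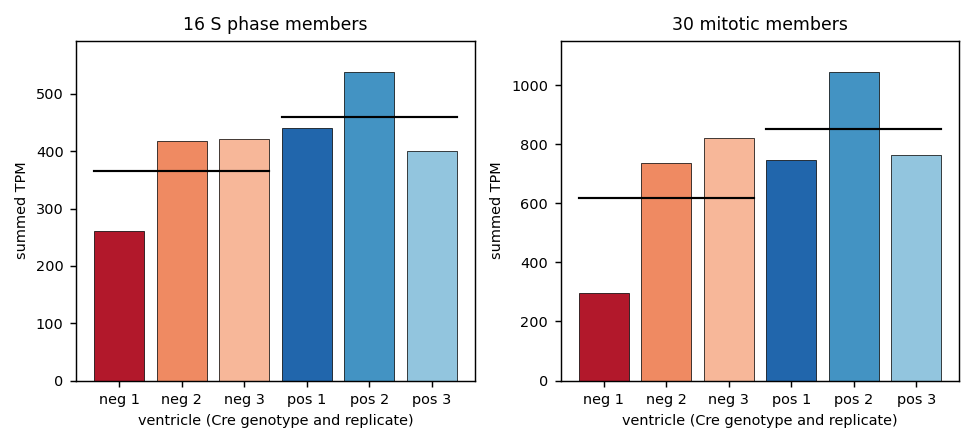
Summed TPM of the 16 S phase members (left) and of the 30 mitotic members (right) in each ventricle, with Cre negative and Cre positive replicates as separate bars and a line at each group's mean. The mitotic sum in Cre negative replicate 1 was 295.9 TPM, with 738.1 to 1046 TPM in the other 5 ventricles.

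Per length, the members were expressed over a wide range. Stmn1, encoding stathmin, which destabilises microtubules, had the highest mean at 130.2 TPM ± 37 (SD, n = 6 ventricles), followed by Pcna, the sliding clamp of DNA polymerase, at 112.3 TPM ± 19.6. Ube2c (72.7 TPM ± 24.8), Hmgb2 (64.1 TPM ± 18.7), Ccnd1 (51 TPM ± 11), Cenpa (48.2 TPM ± 13.1) and Birc5 (42.3 TPM ± 16.4) came next. Neighbours in this order differed by less than the larger of their SDs except Pcna and Ube2c. The lowest means were those of Ccne2 (2.5 TPM ± 0.96), Cenpf (3.2 TPM ± 1.02), Bub1 (3.49 TPM ± 1.68), Cenpe (3.6 TPM ± 1.57) and Cdc25c (3.64 TPM ± 1.72), which do not differ beyond their spread. Values in TPM can be set between genes, while the normalised counts below compare ventricles within 1 gene.

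Among the 5 regulators of the passage from G1 to S, the ventricles had no common order. Ccnd1, encoding cyclin D1, which pairs with Cdk4 and Cdk6, read 1475, 1376 and 1214 normalised counts in Cre negative replicates 1 to 3 and 1654, 1929 and 1284 in the Cre positive ventricles. Cre negative replicate 1 was the highest of its group for this gene, unlike for most members, at 114% of the mean of the other Cre negative ventricles. The groups overlapped at Cre positive replicate 3, and the log2 fold change was 0.26 (SE 0.16), or 0.32 without Cre negative replicate 1, the highest of all members in that fit.

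Ccne1 and Ccne2 encode the E cyclins that activate Cdk2 at the start of S phase. Ccne1 read 62.4, 96.3 and 112.9 normalised counts in Cre negative replicates 1 to 3 and 86.8, 90.6 and 79.2 in the Cre positive ventricles, which all lay inside the Cre negative range. Its log2 fold change of -0.09 (SE 0.23) was the lowest of the 46 members, and was -0.29 without Cre negative replicate 1. Ccne2 read 48.3, 47.2 and 60.3 in the Cre negative and 59.8, 89.7 and 30.3 in the Cre positive ventricles. Here Cre positive replicates 2 and 3 were the highest and the lowest of all 6 ventricles, and the log2 fold change was 0.21 (SE 0.38), or 0.16 without Cre negative replicate 1.

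E2f1, an activator of S phase genes, and E2f8, an atypical E2F that represses them again, are themselves induced at the same transition. E2f1 read 141.3, 268.4 and 243.3 normalised counts in Cre negative replicates 1 to 3 and 299.2, 283 and 198.6 in the Cre positive ventricles. For E2f8 the values were 81.3, 170.1 and 184.9 against 183.5, 173.9 and 165.3. Both genes were lowest in Cre negative replicate 1, and the other 5 ventricles of both genotypes overlapped. The log2 fold change was 0.25 for both genes (SE 0.26 for E2f1 and 0.28 for E2f8), and without Cre negative replicate 1 it was 0.02 for E2f1 and -0.03 for E2f8.

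The 6 minichromosome maintenance genes Mcm2 to Mcm7 encode the ring of the replicative helicase, which is loaded on DNA before S phase. Their mean levels were 29.5 TPM ± 7.54 for Mcm6, 28.6 TPM ± 7.06 for Mcm7, 22.7 TPM ± 6.17 for Mcm3, 21.3 TPM ± 5.83 for Mcm5, 17.9 TPM ± 4.41 for Mcm2 and 14.6 TPM ± 3.58 for Mcm4 (SD, n = 6). Neighbours in this order did not differ beyond their spread.

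Mcm4 (chromosome 16, 15623897 to 15637400 in GRCm38.p6) was the member with the smallest unadjusted p. It read 267.4, 362.7 and 391.2 normalised counts in Cre negative replicates 1 to 3 and 458.7, 490.2 and 415.8 in the Cre positive ventricles. All 3 Cre positive values lay above all 3 Cre negative ones. The means were 454.9 ± 37.4 and 340.4 ± 64.8 (SD, n = 3), with a log2 fold change of 0.42 (SE 0.15) and an exact two-sided permutation p of 0.1, the smallest that 3 against 3 ventricles can give. In edgeR's quasi-likelihood test the unadjusted p was 0.0268 and the adjusted p over all genes 0.714. Without Cre negative replicate 1 the log2 fold change was 0.27, with an unadjusted p of 0.0345 and an adjusted p of 0.733.

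The other helicase subunits had smaller differences and overlapping groups. Mcm2 read 315.7, 496.4 and 432.1 normalised counts in Cre negative replicates 1 to 3 and 508.6, 583.6 and 418.7 in the Cre positive ventricles (log2 fold change 0.28, SE 0.19). Mcm3 read 303.9, 486.6 and 508.9 against 527.5, 646.5 and 490.1 (0.35, SE 0.20). For both, Cre positive replicate 3 lay among the Cre negative values. Mcm5 read 274.5, 492.5 and 509.9 against 539.5, 594.7 and 397.2 (0.26, SE 0.25). Mcm6 read 435.8, 691 and 707.5 against 753.9, 867.6 and 617.3 (0.29, SE 0.20), and Mcm7 read 332.2, 540.6 and 559.5 against 531.5, 629 and 452.9 (0.17, SE 0.21). In these 3 genes Cre positive replicate 3 was below Cre negative replicates 2 and 3. The log2 fold changes were 0.11 for Mcm2, 0.15 for Mcm3, 0.02 for Mcm5, 0.09 for Mcm6 and -0.04 for Mcm7 when Cre negative replicate 1 was left out.

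The clamp and the nucleotide enzymes differed in how low Cre negative replicate 1 lay. Pcna read 797.4, 1040 and 1111 normalised counts in Cre negative replicates 1 to 3 and 1046, 1168 and 1012 in the Cre positive ventricles, with a log2 fold change of 0.13 (SE 0.14). Rrm2 read 121.3, 268.4 and 289 against 312.1, 386.6 and 237.7 (0.46, SE 0.32). Tk1, the thymidine kinase that salvages thymidine in S phase, read 142.5, 366.7 and 327 against 322.1, 347.8 and 264.1 (0.15, SE 0.31). Rrm2 and Tk1 in Cre negative replicate 1 stood at 43.5% and 41.1% of the mean of the other Cre negative ventricles, the lowest shares among the 16 S phase genes, with Pcna at 74.1%. Leaving out that ventricle, the log2 fold changes of Pcna, Rrm2 and Tk1 were -0.005, 0.16 and -0.16.

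Tyms, encoding thymidylate synthase, which makes thymidylate from scratch, was among the few S phase genes without a low value in Cre negative replicate 1, with Ccnd1 and Ccne2. It read 558.3, 580 and 599.4 normalised counts in Cre negative replicates 1 to 3 and 519.6, 609.5 and 574.3 in the Cre positive ventricles. Cre negative replicate 1 was at 94.7% of the mean of the other Cre negative ventricles, and the log2 fold change was -0.03 (SE 0.09), or -0.06 without Cre negative replicate 1, with the smallest SE of the 46 over the 6 ventricles. Tyms is also among the 10 members whose estimated counts were not whole in at least 1 ventricle, so that some of their reads may be shared with other sequences. The others were Birc5, Ccna2, Ccnd1, Ccne2, Cenpf, Hmmr, Kif11, Kif20a and Ube2c. Rrm1, the large subunit of ribonucleotide reductase, had a log2 fold change of 0.38 (SE 0.20), or 0.17 without Cre negative replicate 1.

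Most mitotic genes shared their lowest and their highest ventricle. All 30 had a log2 fold change above 0 over the 6 ventricles (0.15 to 0.60), and 22 of 30 without Cre negative replicate 1. That ventricle was the lowest for 29 of the 30, at a median of 38.3% of the mean of the other Cre negative ventricles, compared with 60.7% for the S phase genes. The exception was Cenpf, lowest in Cre positive replicate 1. Cre positive replicate 2 was the highest for 28 of the 30, and Cdk1 and Cdc25c were highest in Cre negative replicate 3.

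**Figure D3:**
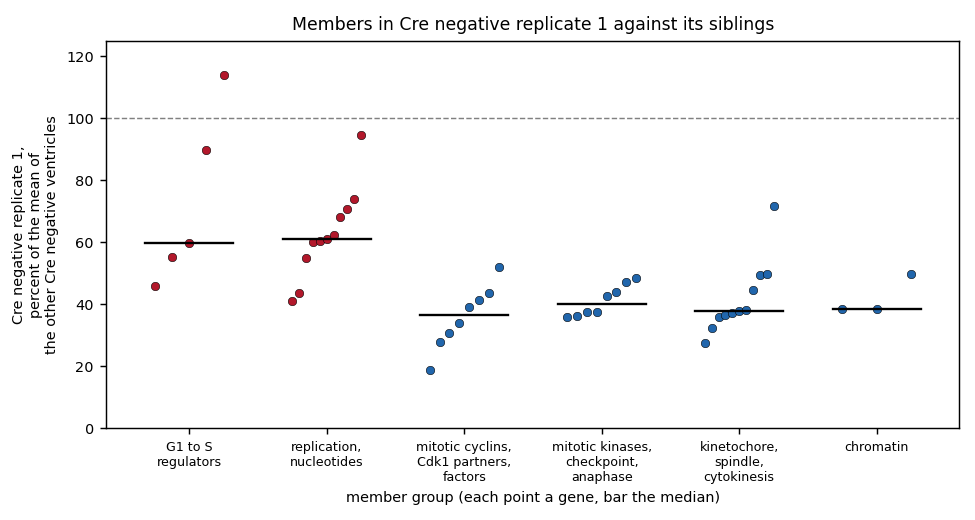
Normalised count of each member in Cre negative replicate 1 as a percentage of the mean of the other Cre negative ventricles, by member group, with S phase groups in red, mitotic groups in blue and a bar at the median. The medians were 59.7% and 61.1% in the S phase groups and 36.4% to 40.1% in the mitotic groups.

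The first group holds the mitotic cyclins, Cdk1 with its partners and the transcription factors of the mitotic wave. Ccna2, encoding cyclin A2, which acts from S phase into mitosis, read 299.2, 680.2 and 767.8 normalised counts in Cre negative replicates 1 to 3 and 723, 973 and 720 in the Cre positive ventricles (log2 fold change 0.46, SE 0.31). Ccnb1, encoding cyclin B1, the partner of Cdk1 at mitotic entry, read 75.4, 232 and 312.4 against 251.3, 334.8 and 262.2 (0.44, SE 0.42). Cdk1 itself read 159, 352.9 and 463.2 against 380.9, 448.6 and 390.3 (0.32, SE 0.33). Apart from Cre negative replicate 1, the ventricles of both genotypes interleaved for all 3 genes, and without it the log2 fold changes were 0.15, 0.05 and -0.01.

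Ccnb2, encoding cyclin B2 (chromosome 9, 70407689 to 70421554), had the highest log2 fold change of the 46 members. It read 74.2, 226.1 and 258.8 normalised counts in Cre negative replicates 1 to 3 and 267.3, 347.8 and 238.7 in the Cre positive ventricles. The log2 fold change of 0.60 (95% confidence interval -0.31 to 1.52) became 0.23 without Cre negative replicate 1, and Cre positive replicate 3 lay below Cre negative replicate 3. Foxm1, a forkhead factor of G2 and mitosis, read 241.5, 518 and 586.8 against 573.4, 768.6 and 487.2 (0.44, SE 0.31). Mybl2, encoding B-Myb, read 83.6, 159.2 and 162.5 against 176.5, 198.9 and 159.5 (0.39, SE 0.25). Both factors were lowest in Cre negative replicate 1 and highest in Cre positive replicate 2, and leaving out the former gave 0.14 for each. Cdc25c, the phosphatase that activates Cdk1, had the lowest share of all members in Cre negative replicate 1, at 18.9% of the other Cre negative ventricles, and Cks2, a small Cdk subunit, stood at 33.9%. Their log2 fold changes were 0.44 (SE 0.53) for Cdc25c and 0.44 (SE 0.40) for Cks2, or -0.005 and 0.09 without that ventricle.

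Among the mitotic kinases, the spindle checkpoint and the anaphase promoting complex, the same ventricles stood out. Plk1, the Polo kinase, read 175.5, 435.5 and 500.2 normalised counts in Cre negative replicates 1 to 3 and 503.6, 550.3 and 452 in the Cre positive ventricles (log2 fold change 0.43, SE 0.33). Aurkb, the kinase of the chromosomal passenger complex, read 130.7, 264.4 and 291 against 296.2, 301.5 and 237.7 (0.28, SE 0.27). Birc5, encoding survivin of the same complex, read 134.3, 350.9 and 400 against 324.1, 481.9 and 314 (0.33, SE 0.37). For Birc5, Cre positive replicates 1 and 3 lay below Cre negative replicates 2 and 3. Without Cre negative replicate 1 the log2 fold changes of Plk1, Aurkb and Birc5 were 0.10, 0.00 and -0.01. Aurka, the spindle pole kinase, had 0.15 (SE 0.31), or -0.15 in that fit.

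Bub1b, encoding the checkpoint protein BubR1, read 134.3, 265.4 and 290 normalised counts in Cre negative replicates 1 to 3 and 263.3, 392.2 and 245.5 in the Cre positive ventricles (0.38, SE 0.30). Cdc20, the activator of the anaphase promoting complex that this checkpoint holds back, read 134.3, 334.2 and 407.7 against 342.1, 425.5 and 338.5 (0.33, SE 0.35). Bub1, a kinase of the same checkpoint, had the value 0.38 (SE 0.42). The log2 fold changes of Bub1b, Cdc20 and Bub1 were 0.11, -0.01 and 0.05 without Cre negative replicate 1.

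Ube2c (chromosome 2, 164769929 to 164772902), whose promoter is printed above, was with Mcm4 the member whose groups did not overlap. It read 202.6, 461 and 490.5 normalised counts in Cre negative replicates 1 to 3 and 534.5, 616 and 538.1 in the Cre positive ventricles. The means were 562.9 ± 46.1 and 384.7 ± 158 (SD, n = 3), with a log2 fold change of 0.54 (SE 0.29) and an exact two-sided permutation p of 0.1. In edgeR's quasi-likelihood test the unadjusted p was 0.098 and the adjusted p 0.714. Without Cre negative replicate 1 the log2 fold change was 0.24, with an unadjusted p of 0.0361 and an adjusted p of 0.733.

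The 11 genes of the kinetochore, the spindle and cytokinesis had log2 fold changes from 0.19 to 0.52, and none of them separated the genotypes. Kif11, the kinesin that pushes spindle poles apart, read 148.4, 322.4 and 342.5 normalised counts in Cre negative replicates 1 to 3 and 283.2, 437.5 and 338.5 in the Cre positive ventricles (0.38, SE 0.31). Stmn1 read 545.4, 1109 and 1099 against 976.3, 1239 and 935.2 (0.19, SE 0.26). In both genes Cre positive replicate 1 was below Cre negative replicates 2 and 3, and without Cre negative replicate 1 the log2 fold changes were 0.08 and -0.08. Prc1, which bundles the microtubules of the central spindle, had the highest value of the group at 0.52 (SE 0.33), and Hmmr, a spindle assembly factor, 0.51 (SE 0.37). The motors of cytokinesis Kif20a and Kif23 had 0.47 (SE 0.34) and 0.45 (SE 0.39), and the spindle factors Tpx2 and Nusap1 0.41 (SE 0.35) and 0.38 (SE 0.34). These 6 genes lay between 0.05 (Nusap1) and 0.19 (Prc1) without Cre negative replicate 1. The centromere genes Cenpa, Cenpe and Cenpf had 0.20 (SE 0.25), 0.44 (SE 0.44) and 0.21 (SE 0.26), or -0.07, 0.05 and 0.07 without that ventricle.

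Of the 3 chromatin genes, Mki67 encodes the proliferation marker Ki-67, which coats mitotic chromosomes. Mki67 read 412.3, 986.9 and 1161 normalised counts in Cre negative replicates 1 to 3 and 955.4, 1411 and 960.7 in the Cre positive ventricles (log2 fold change 0.38, SE 0.35). Top2a read 283.9, 665.5 and 807.7 against 744.9, 1113 and 749.4 (0.57, SE 0.35). Hmgb2, a chromatin protein abundant in dividing cells, read 340.4, 669.4 and 696.8 against 577.4, 821.3 and 628.1 (0.25, SE 0.27). For all 3 genes, Cre positive replicates 1 and 3 lay below Cre negative replicate 3, and without Cre negative replicate 1 the log2 fold changes were 0.04, 0.24 and -0.02.

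**Figure D4:**
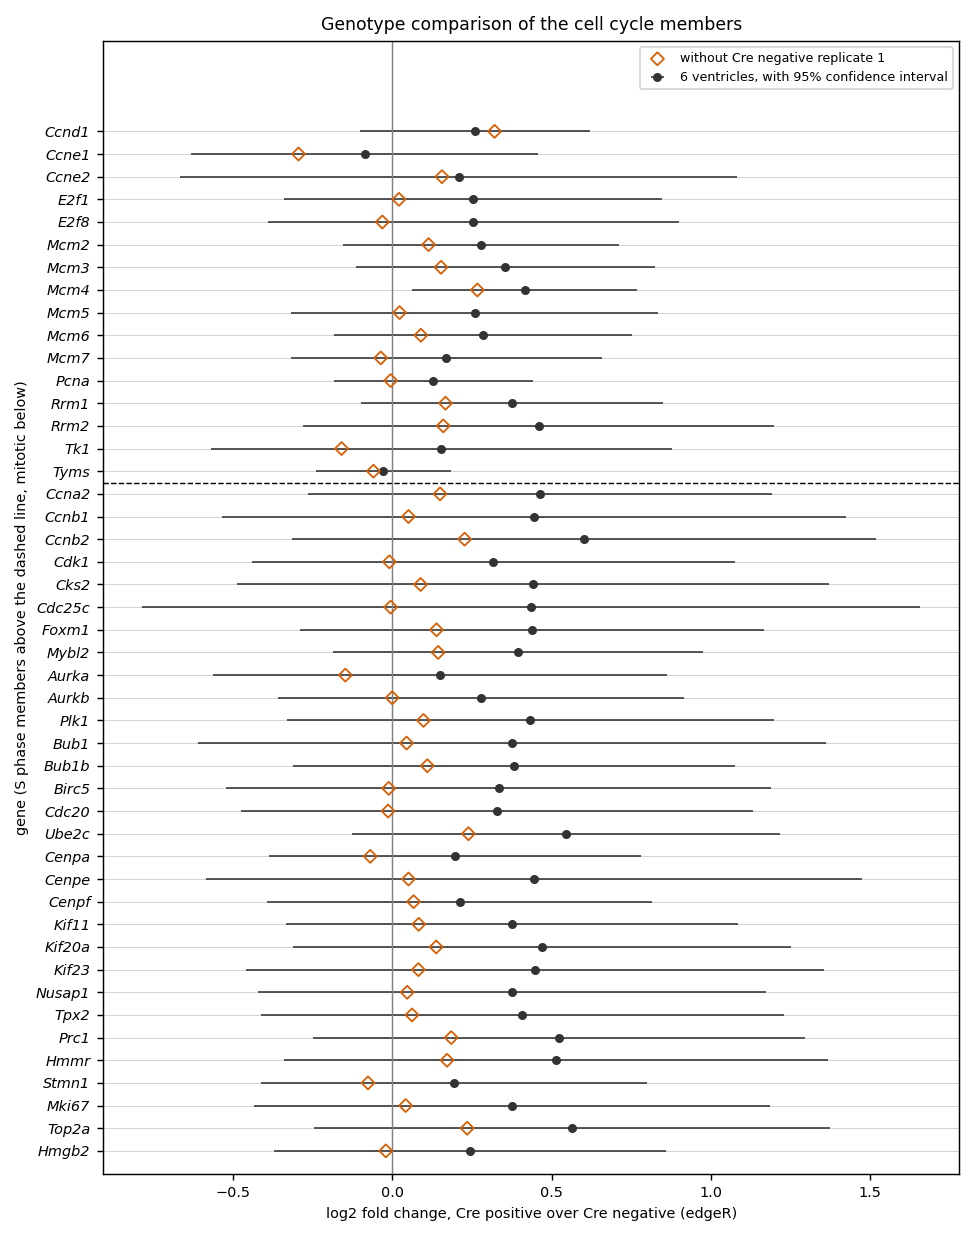
Log2 fold change of each member, Cre positive over Cre negative, from edgeR over 6 ventricles with its 95% confidence interval (filled), and without Cre negative replicate 1 (open). The interval lies wholly above 0 for Mcm4 alone, and the open points lie between -0.29 and 0.32.

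Genes of the same pathways outside the 46 were counted in the same way, and differences between these lists were not tested. Of 44 other mitotic genes, 43 had a log2 fold change above 0 (median 0.39), 42 were lowest in Cre negative replicate 1, and their median there was 40.2% of the other Cre negative ventricles. Leaving out that ventricle, 33 of 44 were above 0, with a median of 0.07. Ect2, the exchange factor that starts the cleavage furrow, and Dlgap5, a spindle protein, had the smallest p of that list, with 0.79 (SE 0.38) and 0.59 (SE 0.28), or 0.45 and 0.33 without it. Of 38 other replication genes, 27 were above 0 (median 0.12), and in Cre negative replicate 1 their median was 74.9% of the other Cre negative ventricles. The smallest p were those of Pola1, the catalytic subunit of DNA polymerase alpha (0.48, SE 0.22), and Clspn, encoding the replication checkpoint protein claspin (0.61, SE 0.31). The median of this list was -0.004 without Cre negative replicate 1, with 19 of 38 above 0, and Pola1 and Clspn were at 0.32 and 0.33.

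Regulators upstream of division were counted likewise. Of 11 other cyclins and kinases tested, 10 were above 0 (median 0.12) and 8 were lowest in Cre negative replicate 1, at a median of 81.9% of the other Cre negative ventricles, with Cdc25b, a phosphatase acting on Cdk1, at 0.43 (SE 0.23) and Ccnd2, encoding cyclin D2, at 0.13 (SE 0.08). Leaving out Cre negative replicate 1, 6 of these 11 were above 0 (median 0.007), with Cdc25b at 0.19 and Ccnd2 at 0.14. Of 16 E2F, retinoblastoma and MuvB genes, 11 were above 0 (median 0.15), 7 were lowest in Cre negative replicate 1, and their median in Cre negative replicate 1 was 99.7% of the other Cre negative ventricles. In the fit without that ventricle 9 of 16 were above 0, with a median of 0.007. E2f3, an activating E2F, read 225, 205.4 and 210.2 normalised counts in Cre negative replicates 1 to 3 and 269.3, 251.6 and 263.2 in the Cre positive ventricles. Its groups did not overlap, as for 7.55% of all genes in that direction. Its log2 fold change was 0.29 (SE 0.10), and 0.33 without Cre negative replicate 1, with an unadjusted p of 0.0238 and an adjusted p of 0.714 in edgeR's quasi-likelihood test over 6 ventricles. Tfdp2, a dimerisation partner of E2F, went the other way, with 1291, 868 and 811.6 against 703.1, 629 and 749.4. All 3 Cre positive values were below the Cre negative ones, as for 946 of all 13817 genes tested. The log2 fold change was -0.51 (SE 0.18), or -0.28 without Cre negative replicate 1, and the adjusted p in edgeR's quasi-likelihood test was 0.714. E2f3 and Tfdp2 were named because they had the smallest p of this list.

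The brakes of the cycle had no common direction. Of 11 inhibitors and stress-induced brakes, 5 were above 0, with a median of -0.05, and 5 were lowest in Cre negative replicate 1. Leaving out this ventricle turned the sign of the median, to 0.08, with 7 of 11 above 0. Cdkn2b, encoding the Cdk4 inhibitor p15, read 17.7, 33.4 and 52.6 normalised counts in Cre negative replicates 1 to 3 and 46.9, 62.9 and 52.8 in the Cre positive ventricles (log2 fold change 0.64, SE 0.38, or 0.33 without Cre negative replicate 1). Btg2, an antiproliferative gene induced by stress, read 1059, 1082 and 1101 against 1272, 1263 and 1116. Its groups did not overlap, as for 7.55% of all genes in that direction. The log2 fold change of Btg2 was 0.17 (SE 0.09), or 0.15 without Cre negative replicate 1. No gene of these 5 lists passed an adjusted p of 0.05 in edgeR's quasi-likelihood test, the smallest being 0.714.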

How the data were processed

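Bulk RNA-seq libraries of 6 left ventricles (3 Cre positive, 3 Cre negative) were compared. The authors deposited, per gene and ventricle, an estimated count and a TPM value, the latter scaled by transcript length and to the library. The submitters' processing notes name Bowtie2 2.2.5, RSEM 1.2.12 and GRCm38.p6, without role or order. A deposited table of the authors' own comparison (log2 fold changes, p-values and q-values) was not used, and 0 columns of per-sample values were left over. Of the counts, 11.27% were not whole (tolerance 1e-09) and were rounded. Genes passed edgeR's filterByExpr (minimum count 10, total 15), leaving 13817 of 17556. Counts were scaled by TMM and tested with edgeR 4.0.16's quasi-likelihood test (R 4.3.3) of Cre positive against Cre negative, two-sided, with Benjamini-Hochberg adjustment over all genes tested and a threshold of 0.05. The p-values set the genotype difference against the variation among ventricles of the same genotype, in which mice and libraries cannot be told apart.

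Values for each ventricle are given for 31 members chosen by role and for the members with the highest and lowest fold change. They were also planned for any member with an adjusted p below 0.05. Of each related list, the 2 genes with the smallest p are named, some with fold change and SE only. Members and lists were chosen with earlier results of these data known. Alternatives were other scaling (DESeq2 1.42.0 size factors, upper quartile), no filter or a mean of 50 counts, DESeq2's Wald test, limma 3.58.1 on log2(TPM + 1) and log2(TPM + 0.1), a replicate block, Y-linked counts as a covariate, an adjusted p of 0.1 and leaving out each ventricle. The spread of each set without Cre negative replicate 1 was added after seeing the data. The fit was also run on counts simulated gene by gene, with the outcome not given here. No simulated ventricle departed as a whole, as Cre negative replicate 1 does. Elements were searched in RefSeq promoter windows with Python 3.11.15. Library totals were 13177888 to 14827579 counts, and the 3 mice per genotype limit the precision.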

Additional observations from a re-analysis of the deposited data

How the results depend on the processing

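No member passed an adjusted p of 0.05 under any alternative run. The number of genes called over the whole table was 1, and was 5 with DESeq2's Wald test, 2 with limma on log2(TPM + 1), 2 with limma on log2(TPM + 0.1), and 0 to 2 when 1 ventricle was left out (2 without Cre negative replicate 1). In limma on TPM the median over all genes moved to 0.109 and 0.125 for the 2 pseudocounts, and relative to it Ccne1 (0.059 and 0.076) and Tyms (0.09 and 0.094), above 0 there and below 0 in edgeR, lay below. The median log2 fold change was 0.056 to 0.402 over the S phase genes and 0.065 to 0.662 over the mitotic genes when 1 ventricle was left out, lowest without Cre negative replicate 1 in both. Of the 32 members given per ventricle, the sign of 12 depended on the ventricle left out, with log2 fold changes of -0.011 to 0.612 for Birc5, -0.294 to 0.102 for Ccne1, -0.207 to 0.522 for Ccne2, -0.013 to 0.645 for Cdc20, -0.009 to 0.659 for Cdk1, -0.031 to 0.461 for E2f8, -0.02 to 0.415 for Hmgb2, -0.036 to 0.298 for Mcm7, -0.005 to 0.226 for Pcna, -0.076 to 0.35 for Stmn1, -0.159 to 0.399 for Tk1 and -0.084 to 0.031 for Tyms. Of the other members, Aurka (-0.147 to 0.413), Bub1 (-0.056 to 0.66), Cdc25c (-0.005 to 0.978) and Cenpa (-0.069 to 0.399) also crossed 0, and Aurkb was at 0.0 without Cre negative replicate 1. The cause was not tested.

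The labels give both genotypes replicates 1 to 3. Deviations of same-numbered ventricles correlated at 0.354, 0.073 and -0.032, within the range of different-numbered ones (-0.368 to 0.354). With 3 mice per genotype, these values cannot decide whether the numbers pair the mice. Replicate 2 was the ventricle with few Y-linked counts in both genotypes. With the replicate number as a block, 0 genes and 0 members were called, 1217 genes and 5 members had an unadjusted p below 0.05, and the medians were 0.278 (S phase) and 0.483 (mitotic).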
